A study of Mus musculus with 6 samples.

Results

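The genes of histamine synthesis, storage, breakdown and reception were followed in the retina of mice that lack Dicer1 in rods. They are Hdc, Slc18a2, Ddc, Hnmt, Maoa, Maob, Hrh1, Hrh2 and Hrh3, 9 gene symbols chosen by name, and all 9 were found among the 22731 rows of the deposited table. The conditional knockout (cKO) mice were Dicerfl/fl, iCre75+ and the control littermates Dicerfl/fl, iCre75-, so both groups carried the floxed alleles and only the cKO mice carried the Cre transgene, which acts in rods alone among retinal cells. All mice were 4 weeks old, of a mixed C57BL/6J and SJL background, and their retinas were taken between 8 and 10 in the morning. Each group had 3 RNA-seq libraries, cKO replicates 2, 3 and 4 and control replicates 1, 2 and 3, and each library pooled RNA of 4 mice. Values are RPKM, reads scaled to the length of the gene model and to the depth of the library, as the authors deposited them.

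Histamine is made from the amino acid histidine in a single step by histidine decarboxylase, loaded into vesicles by the vesicular monoamine transporter, and inactivated by methylation and then oxidation. It acts through receptors coupled to different G proteins. In the mammalian retina it is best known as the transmitter of axons that arrive from the hypothalamus through the optic nerve, whose cell bodies lie outside the eye.

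The libraries rested on between 15128203 reads (cKO replicate 4) and 40523119 reads (control replicate 3), worked back from the steps of the RPKM values. Dicer1 was measured at 8.48, 8.77 and 8.33 RPKM in controls and at 8.02, 7.06 and 7.90 RPKM in cKO retinas, values that include undeleted exons and all cells other than rods. All 15 retinal markers checked, among them the rod transducin gene Gnat1, averaged 1 RPKM or more. No gene of the whole table was called lower and 1 was called higher in cKO, 0.00794% of the 12599 genes tested with limma on log2(RPKM + 0.5) at an adjusted p of 0.05.

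Hdc, which encodes histidine decarboxylase, stood at 3.61, 3.76 and 3.34 RPKM in control replicates 1, 2 and 3 and at 1.96, 2.01 and 1.81 RPKM in cKO replicates 2, 3 and 4. The highest cKO library lay well below the lowest control library. The means were 3.57 ± 0.215 and 1.92 ± 0.104 RPKM (SD, n = 3 each), so the cKO mean was 53.8% of the control mean. On the log2(RPKM + 0.5) scale this was a difference of −0.75 ± 0.08 (SE). Its limma adjusted p, 0.0957, was above the threshold. The histamine genes were picked with this very difference in view, so its size is a description and its p supports nothing. In whole retina, fewer cells of a type and less RNA per cell cannot be told apart.

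The Hdc values rested on 296, 349 and 322 reads in the controls and on 114, 171 and 65 reads in the cKO libraries. The length of its gene model, inferred from the RPKM steps, was 2378 bp. The counting error of a single library was between 5.35% and 5.81% in controls and between 7.65% and 12.4% in cKO. Between libraries the coefficient of variation was 6.01% in controls and 5.38% in cKO, so libraries of 1 group differed by no more than about what counting alone gives. cKO replicate 3, with 35846244 reads behind its values, was sequenced a little deeper than control replicate 1, with 34432874, and still held 171 Hdc reads against 296. Hdc lies on chromosome 2 (126593667 to 126619299 on the minus strand, GENCODE M21 on GRCm38), and no other annotated gene overlaps it there. The authors used mm9, so these positions are not those of their alignment. The same annotation gave the transcript lengths used to work back the depth of each library, the 3′ UTRs and the antisense overlaps.

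**Figure D1:**
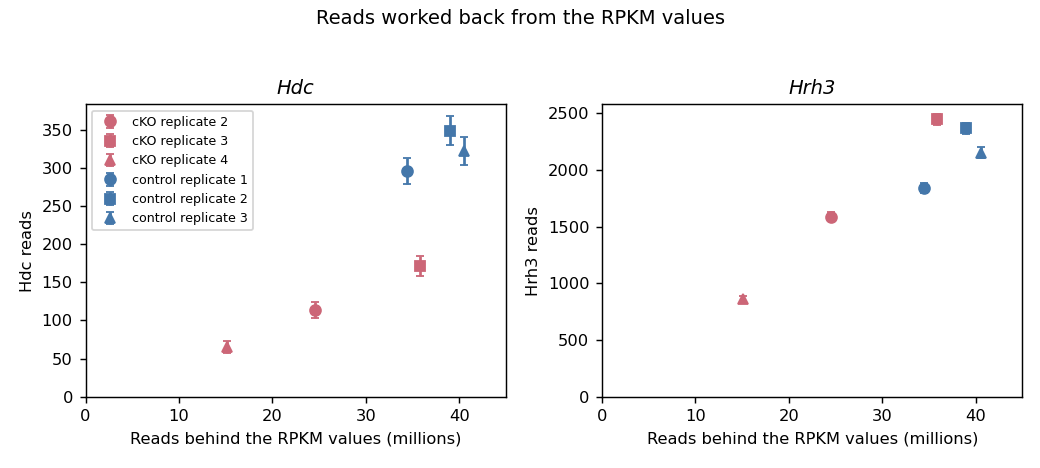
Reads of Hdc (left) and Hrh3 (right) in each library against the reads behind its RPKM values, with blue for control and red for cKO. Bars are the square root of the reads (counting error). The 3 cKO libraries hold 65 to 171 Hdc reads and the 3 control libraries 296 to 349. For Hrh3, cKO replicate 3, the deepest cKO library, holds 2444 reads, more than any control library. cKO replicates 2 and 4 hold 1587 and 860 Hrh3 reads, fewer than any control library (1841 to 2366).

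Slc18a2 encodes the vesicular monoamine transporter VMAT2, which fills vesicles with histamine, dopamine and serotonin. It was at 1.13, 0.857 and 0.921 RPKM in controls and at 0.708, 0.844 and 0.747 RPKM in cKO retinas. All 3 cKO values were below the controls, but the gap between cKO replicate 3 and control replicate 2 was 0.844 against 0.857 RPKM. The means were 0.969 ± 0.143 and 0.766 ± 0.0698 RPKM (SD, n = 3), with between 43 and 148 reads per library. Its mean over the 6 libraries, 0.868 RPKM, was below the minimum of 1 RPKM for testing. In a fit of the 15738 genes averaging 0.1 RPKM or more, Slc18a2 differed by −0.21 ± 0.10 (SE) on the log2 scale, short of the threshold (limma adjusted p = 0.873). Without control replicate 1, its highest library, the difference was −0.135.

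Ddc, the aromatic amino acid decarboxylase that makes dopamine and serotonin, showed no such separation. Its values were 0.431, 0.356 and 0.484 RPKM in controls and 0.527, 0.521 and 0.316 RPKM in cKO, with cKO libraries both above and below all of the controls. It rested on only 10 reads in cKO replicate 4 and at most 41 elsewhere.

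Hnmt encodes histamine N-methyltransferase, the enzyme that inactivates histamine in the brain. It was at 2.76, 2.32 and 2.70 RPKM in controls and 2.14, 2.28 and 2.82 RPKM in cKO retinas. The groups overlapped, with cKO replicate 4 the highest and cKO replicate 2 the lowest of all libraries. The log2 fold change was −0.09 ± 0.11 (SE).

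Maoa and Maob encode the monoamine oxidases of the outer mitochondrial membrane, and monoamine oxidase B takes the methylated histamine further. Maoa was at 2.11, 2.15 and 2.30 RPKM in controls and 1.86, 2.22 and 2.56 RPKM in cKO. The 3 controls lay inside the range of the cKO libraries, and the log2 fold change was 0.01 ± 0.11 (SE). Maob was at 0.530, 0.532 and 0.491 RPKM in controls and 0.592, 0.463 and 0.466 RPKM in cKO, again with controls inside the cKO range. The group means of Maob were 0.518 ± 0.0229 and 0.507 ± 0.0737 RPKM (SD, n = 3).

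Since Dicer1 cuts microRNAs to their mature form, the members were searched for seed matches of miR-183, miR-96 and miR-182, a cluster that is abundant in photoreceptors. The mature sequences are shown because their seeds (bases 2 to 8, in capitals) set what was searched (RefSeq, GRCm38.p6, chromosome 6).
mmu-miR-183-5p: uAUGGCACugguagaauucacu
mmu-miR-96-5p: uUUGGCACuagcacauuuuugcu
mmu-miR-182-5p: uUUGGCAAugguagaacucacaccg
The search used the longest annotated 3′ UTR of each gene (GENCODE M21), on the transcript strand only, for GTGCCAT (miR-183), GTGCCAA (miR-96) and TTGCCAA (miR-182). Of 21173 genes with a 3′ UTR, 9.61%, 8.70% and 12.0% held them in that order. Those shares are for each match alone, and the share of genes holding any of them was not computed. Among the 9 members, 2 held any of these matches, both of them monoamine oxidases. With no like share beside it, nothing is read from this count. The matches are printed 5′ to 3′ in capitals.
Maob, match to miR-183: atatgtgattaGTGCCATtccacctgctt
Maoa, match to miR-96: ttttctctcaaGTGCCAAaggacatatga
Both of these genes overlapped between the groups. None of these 7-base matches was found in the 294 bases of the Hdc 3′ UTR, which says only that those letters are not there. A match is a description of the sequence and no measure of regulation, and the microRNAs themselves were not measured here.

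The histamine receptor genes differed widely in level. Hrh3 encodes the H3 receptor, a Gi/o-coupled receptor that in brain restrains transmitter release, and in monkey retina H3 protein has been placed on the dendritic tips of ON bipolar cells. Hrh3 was at 22.0, 25.0 and 21.8 RPKM in controls and 26.6, 28.0 and 23.4 RPKM in cKO. Control replicate 2 lay above cKO replicate 4, so the groups overlapped. The means were 22.9 ± 1.76 and 26.0 ± 2.39 RPKM (SD, n = 3), which differ by 0.18 ± 0.10 (SE) on the log2 scale (limma adjusted p = 0.935), on 860 to 2444 reads per library.

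Hrh2, the Gs-coupled H2 receptor gene, was at 0.447, 0.478 and 0.256 RPKM in controls and 0.496, 0.489 and 0.568 RPKM in cKO. All 3 cKO values lay above the controls, by a narrow margin over control replicate 2, on 24 to 52 reads per library. On the log2 scale the difference was 0.20 ± 0.12 (SE), short of the threshold in the fit down to 0.1 RPKM (limma adjusted p = 0.924). Without control replicate 3, the lowest library, it was 0.0804.

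Hrh1, the Gq-coupled H1 receptor gene, was close to undetected. It was listed at 0.0230, 0.00678 and 0.0196 RPKM in controls and at 0, 0 and 0.0175 RPKM in cKO, which is 3, 1 and 3 reads against 0, 0 and 1. No library exceeded 3 reads, the limit that a count of 0 allows, so no fold is given and a difference was not detectable at this depth. The limit stood between 0.0196 and 0.0524 RPKM for an inferred gene model length of 3782 bp and covers counting error only. Exons of Slc18a2, Hrh2 and Hrh3 overlap an annotated antisense transcript each, and since the library protocol kept no strand, their reads cannot be told apart from those of the antisense partner.

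**Figure D2:**
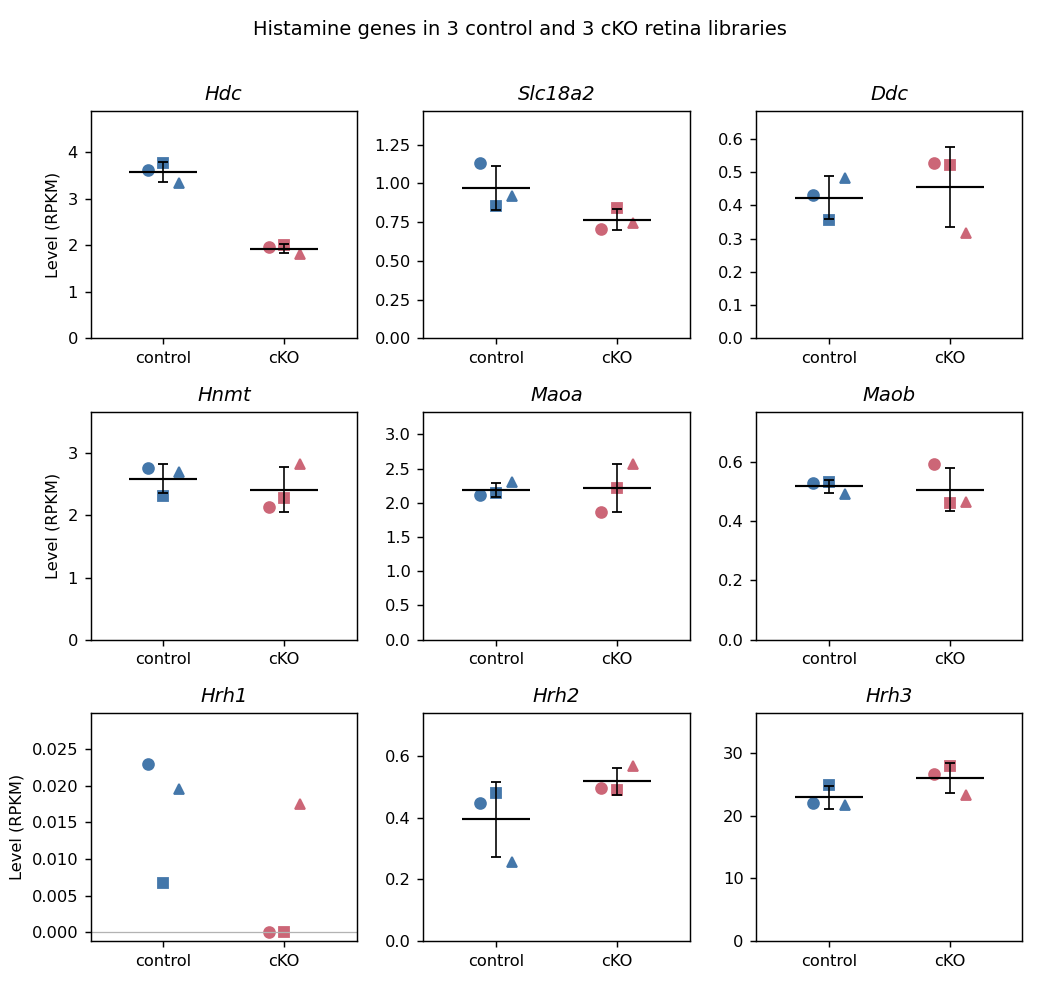
RPKM of the 9 histamine genes in 3 control (blue) and 3 cKO (red) libraries, each panel on its own linear scale, with circle, square and triangle for control replicates 1, 2 and 3 and cKO replicates 2, 3 and 4. Black lines are means with SD, left out for Hrh1, where 2 libraries are at 0. Hdc is the gene with a wide gap between groups, 1.81 to 2.01 RPKM in cKO against 3.34 to 3.76 RPKM in controls.

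Set against each other, 4 of the 9 members averaged 1 RPKM or more over all libraries and so entered the test, and 0 of these passed the adjusted threshold, beside 0.00794% of all genes tested. By limma on log2 RPKM, 1 of the 4 had an unadjusted p under 0.05, against 5.71% of all tested genes, and limma voom on reads worked back from the RPKM values also called 0 members. Of the 4, 1 (Hdc) had its 3 cKO values below all controls, against 5.78% of the genes tested, and 0 had them above, against 5.91%, or 11.7% in either direction. Of the 8 members at 0.1 RPKM or more, 2 (Hdc and Slc18a2) lay below the controls, against 6.04% of the 15738 genes at that level, and 1 (Hrh2) above them, against 5.83%, or 11.9% in either direction. The members were chosen with this comparison known, so nothing is read from these shares.

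**Figure D3:**
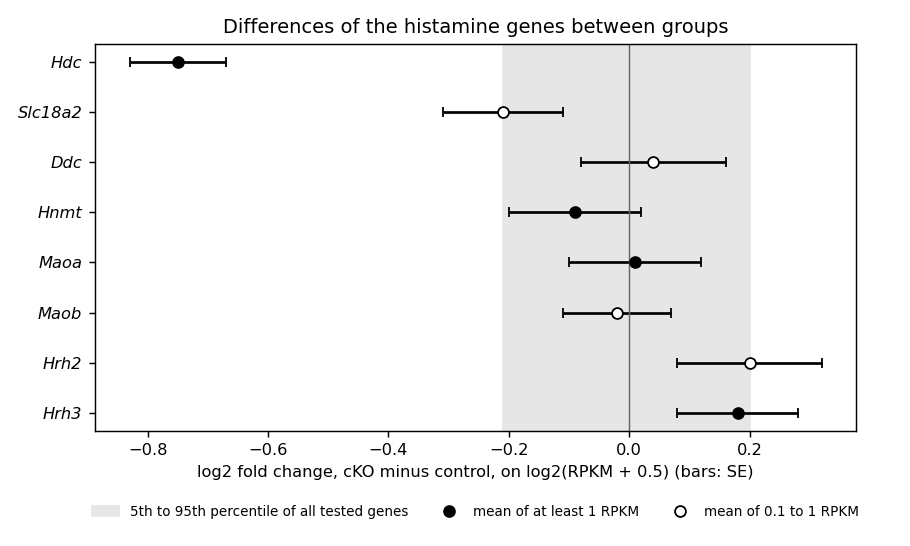
log2 fold change (cKO minus control, on log2(RPKM + 0.5)) of 8 histamine genes, with SE bars. Filled points average 1 RPKM or more and open points between 0.1 and 1 RPKM, and the grey band spans the 5th to 95th percentile of all tested genes, −0.21 to 0.20. Hdc at −0.75 lies far outside the band, and the other 7 lie within it or at its edge. The genes were picked with the Hdc difference in view, so its place against the band is a description only. Open points come from the fit down to 0.1 RPKM, not from the genes behind the band, and the added 0.5 shrinks their differences. With 0.1 added instead, Hrh2 was at 0.354, Slc18a2 at −0.299, Ddc at 0.0654 and Maob at −0.0315.

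Ratios inside a library do not depend on its depth, and they placed Hdc against the enzymes that remove histamine. Hdc stood above Hnmt in every control library, by ratios of RPKM of 1.31, 1.63 and 1.24, and below it in every cKO library, at 0.914, 0.880 and 0.640. Against Maoa the ratio was 1.72, 1.75 and 1.45 in controls and 1.05, 0.904 and 0.706 in cKO. The same held against the transporter gene Slc18a2, which was itself lower in cKO, with ratios of 3.20, 4.39 and 3.63 in controls and 2.76, 2.38 and 2.42 in cKO. For each of these 3 partners the groups did not overlap. Hrh3 exceeded Hdc by ratios of 6.08, 6.63 and 6.53 in controls and 13.6, 14.0 and 12.9 in cKO, so that within each group the ratio of receptor to synthesis transcript was nearly constant. These ratios contain the Hdc difference itself and are no separate evidence for it.

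**Figure D4:**
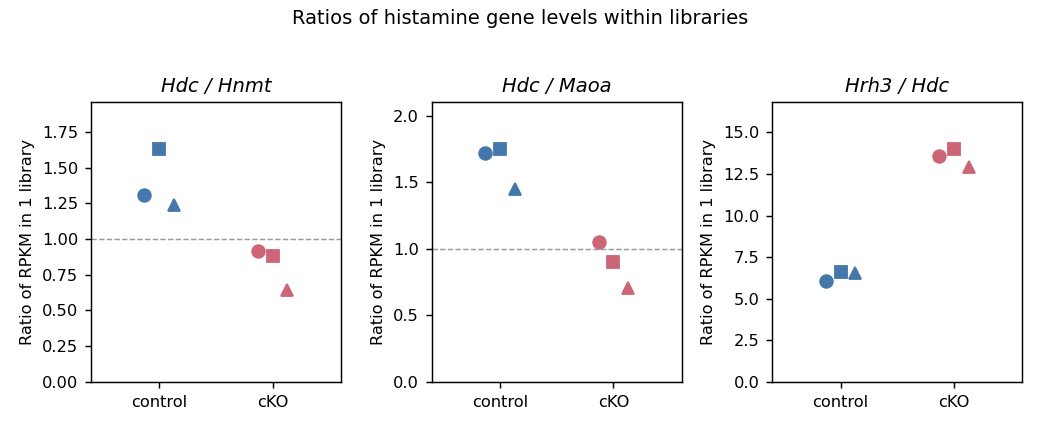
Ratios of RPKM within each library for Hdc to Hnmt, Hdc to Maoa and Hrh3 to Hdc, with control in blue and cKO in red. The dashed line marks equal levels. The Hdc to Hnmt ratio is 1.24 to 1.63 in controls and 0.640 to 0.914 in cKO, and the Hrh3 to Hdc ratio is 6.08 to 6.63 and 12.9 to 14.0.

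By mean RPKM over the 6 libraries, the members ran in the order Hrh3 (24.5), Hdc (2.75), Hnmt (2.50), Maoa (2.20), Slc18a2 (0.868), Maob (0.512), Hrh2 (0.456), Ddc (0.439) and Hrh1 (0.0111). Hrh3 stood above 79.0% of all tested genes, and Hdc, Hnmt and Maoa above 17.6%, 15.7% and 13.2%. Hrh3 lay above Hdc, Hnmt above Maoa, Maoa above Slc18a2 and Slc18a2 above Maob in 6 of 6 libraries. Of the 7 neighbouring pairs compared by an exact two-sided paired permutation test, 0 passed after adjustment over the pairs. Over 6 libraries that test cannot give a p below 0.03125. Each of the pairs just named had this p, 0.0547 after adjustment. The pairs were set by ranking the same libraries, cKO and control together, so these counts describe the order and do not test it. The mean log2 ratios of (RPKM + 0.5) were 2.99 ± 0.51 for Hrh3 over Hdc, 0.15 ± 0.10 for Hnmt over Maoa, 0.98 ± 0.20 for Maoa over Slc18a2 and 0.43 ± 0.17 for Slc18a2 over Maob (SD over 6 libraries).

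Other neighbours changed places between libraries. Hdc lay above Hnmt in 3 of 6 libraries, the controls. Maob lay above Hrh2 in 4 of 6, and Hrh2 above Ddc in 3 of 6. Ddc lay above Hrh1 in 6 of 6 libraries, and this pair was left out of the test because Hrh1 was at 0 in some. Levels of different genes also carry any error of the authors' gene models. Their lengths, as inferred from the RPKM steps, ran from 1639 bp (Hnmt) to 4161 bp (Maoa).

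The genes whose 6 values followed Hdc most closely were Rhog, Mex3c and 1700049G17Rik, with Pearson r on log2(RPKM + 0.5) of 0.992, 0.989 and 0.988 over the 6 libraries. Rhog, a small GTPase gene, was at 6.96, 6.90 and 6.44 RPKM in controls and 5.39, 5.25 and 5.12 RPKM in cKO. Mex3c, an RNA-binding ubiquitin ligase gene, was at 11.4, 11.6 and 11.2 RPKM in controls and 9.71, 9.85 and 9.88 RPKM in cKO. Both were lower in every cKO library, as was 1700049G17Rik, but by less than Hdc, with log2 fold changes of −0.34, −0.21 and −0.25. With 2 groups of 3 libraries such an r mostly restates the difference between groups, and 141 genes had an r over 0.9.

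Around the members, histamine uptake and side-chain oxidation held 9 listed genes, of which 4 were abundant enough to test. None passed, the cKO mean was above the control mean for 1 and below it for 3, and the median log2 fold change was −0.048, beside −0.005 over all genes tested. Aldh2, the mitochondrial aldehyde dehydrogenase, was at 25.4, 26.3 and 24.2 RPKM in controls and 26.8, 26.1 and 21.8 RPKM in cKO. Slc29a4, a membrane transporter of monoamines, was at 11.6, 13.8 and 11.8 RPKM and 13.8, 15.0 and 13.1 RPKM. Abp1, the diamine oxidase that degrades histamine in gut, was listed at 0 in all 6 libraries.

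Of 9 genes of histidine supply and other histidine use, 5 were tested, none passed, and the median log2 fold change was 0.017. Slc38a3, which carries glutamine and histidine, was the most abundant at 251, 273 and 256 RPKM in controls and 354, 387 and 367 RPKM in cKO, with the groups apart (log2 fold change 0.50 ± 0.09 SE, limma adjusted p = 0.424). Of 16 genes of signalling behind the histamine receptors, 13 were tested and none passed, 9 with a higher and 4 with a lower mean in cKO (median 0.032). Gnas, the stimulatory G protein subunit that H2 receptors use, was at 185, 166 and 217 RPKM in controls and 169, 198 and 203 RPKM in cKO. Itpr1, an inositol trisphosphate receptor gene, was at 5.02, 5.09 and 4.33 RPKM and 4.63, 4.27 and 3.78 RPKM, with overlapping groups.

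The synthesis, uptake and breakdown of other monoamines held 15 genes, 6 of them tested, and none passed (median −0.093). Qdpr, which regenerates the cofactor of the aromatic amino acid hydroxylases, was at 50.6, 41.0 and 54.8 RPKM in controls and 41.2, 45.1 and 48.8 RPKM in cKO. Spr, which makes that cofactor, was at 25.7, 23.2 and 29.5 RPKM and 20.0, 21.9 and 20.8 RPKM, lower in each cKO library (log2 fold change −0.31, limma adjusted p = 0.848). Th, the enzyme of dopamine synthesis and a marker of dopaminergic amacrine cells, which use VMAT2, was at 2.43, 2.25 and 2.99 RPKM in controls and 2.62, 2.76 and 2.45 RPKM in cKO. Nr4a2, a transcription factor gene of such cells, was at 2.46, 2.31 and 2.57 RPKM and 2.10, 1.88 and 2.13 RPKM, lower in each cKO library as Slc18a2 was, and its part in the Slc18a2 values was not tested.

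Hdc is also strongly expressed by mast cells, basophils and some myeloid cells. Of 12 mast cell and basophil markers, Tpsab1, Mcpt8, Mrgprb2 and Ms4a2 were at 0 in all 6 libraries. The summed level of the 12 was between 1.92 and 2.33 RPKM in controls and between 1.58 and 2.37 RPKM in cKO, most of it from Kit, at 1.31, 1.25 and 1.15 RPKM and 1.13, 1.42 and 1.03 RPKM. All 8 mast cell and basophil markers detected in any library had a lower mean RPKM in cKO, and each of the 8 overlapped between groups. Of these, Cpa3, Tpsb2, Cma1, Mcpt4 and Fcer1a did not exceed 0.107 RPKM, and each was at 0 in some library. Their direction is therefore not readable at this depth. The cKO mean was 96.7% of the control mean for both Kit and Gata2, and 65.5% for Hpgds (0.117 against 0.179 RPKM). The summed level of 11 myeloid markers was 9.03 to 12.5 RPKM in controls and 10.3 to 11.1 RPKM in cKO. Of these 11, 3 had a higher and 8 a lower mean RPKM in cKO. The microglial gene Cx3cr1 was at 1.46, 1.27 and 1.31 RPKM in controls and 1.57, 1.54 and 1.31 RPKM in cKO, and 1 of the 11, Aif1, had its cKO values below all controls. The part of either list in the Hdc values was not tested. Pigment epithelium markers (6 genes) summed to 121 to 221 RPKM and 118 to 223 RPKM, and vascular markers (6 genes) to 60.4 to 62.8 RPKM and 56.7 to 69.0 RPKM. For each of these 4 lists the cKO range of the sum overlapped the control range.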

How the data were processed

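Poly(A) RNA of pooled retinas was sequenced. GSNAP, HTSeq and mm9 are named, without versions, per the submitters' processing notes, and the authors deposited 1 table of RPKM per gene and library. For the annotation and the depth definition, the sources used here give nothing. Groups follow the sample titles. Reads behind each library were inferred from the RPKM steps of genes with a single annotated transcript length. The length of each gene model was then taken as the shortest, up to 40000 bp, that gave whole reads in all libraries above 0. Such a length was found for 99.99% of 19140 genes above 0, and it set the reads per gene. These steps were tested on simulated data, but a length that fits need not be the authors' own. No 2 libraries of a group agreed within sampling noise (chi-square per degree of freedom 9.65 to 30.3).

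RPKM are not counts, so limma 3.58.1 (R 4.3.3) with a variance trend was fitted to log2(RPKM + 0.5) for the 12599 genes averaging 1 RPKM or more, two-sided, with Benjamini-Hochberg adjustment at 0.05. Members under that mean were fitted with all 15738 genes of at least 0.1 RPKM. Neighbouring levels were compared by exact sign-flip permutation over libraries. The design calls the libraries biological replicates, and p-values measure the spread between pools of mice. The members and lists were chosen with earlier results of these data known. Named are all members, the 3 genes most correlated with Hdc, and from each list the most abundant gene and the one with the largest statistic. Further marker genes and genes at or near 0 are named beside them. Alternatives were other pseudocounts, filters, scaling, no variance trend, voom, a replicate block and leaving out each library.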

Additional observations from a re-analysis of the deposited data

How the results depend on the processing

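Hdc was lower in cKO in each of 15 alternatives, with log2 fold changes between −0.894 and −0.646. Its cKO values all lay below the controls, so this direction could hardly change between settings and is no separate evidence. Its limma adjusted p passed 0.05 in 1 of the alternatives and lay between 0.0676 and 0.917 in the others. Leaving out 1 library gave between −0.791 and −0.714 (adjusted p 0.143 to 0.917). The replicate numbers 2 and 3 occur in both groups but are not said to pair mice. The correlation of deviations from the group means was 0.465 for number 2 and −0.052 for number 3. Pairs of different numbers ran from −0.551 to 0.476. Within the 4 libraries of shared numbers alone the correlation was 0.475. Whether libraries of the same number share a litter or a batch was not tested. With a replicate block on those 4 libraries, with 1 residual degree of freedom, Hdc was at −0.706 with an adjusted p of 0.00339, and 93 genes were called higher and 116 lower. Without the block the same libraries gave 1 and 0, and Hdc was at −0.706 with an adjusted p of 0.680. Calls over all genes, 1 higher and 0 lower as reported, were 3 higher with median-of-ratios scaling, 2 higher with no variance trend, 2 higher and 1 lower with voom and 2 lower with no filter, and stayed at 1 and 0 without any single library. The cause was not tested. The other members passed in none of 101 combinations of a member and an alternative, with limma adjusted p of at least 0.237. These combinations share fits and libraries and are not separate tests. Slc18a2 ran from −0.322 to −0.124, Hrh2 from 0.0804 to 0.426, Hrh3 from 0.122 to 0.251 and Hnmt from −0.187 to −0.0215, while Maoa, Maob and Ddc took both signs. No pair of the level order passed in any alternative, and with 1 library left out no p below 0.0625 is possible. Depth limits Ddc, Maob, Hrh2 and above all Hrh1.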
